A study of Mus musculus with 12 samples.

Results

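RNA-seq of the brachial (forelimb-level) ventral spinal cord of *Isl2* knockout (KO) mice was compared with that of their heterozygote controls, using the 6 brachial libraries of a series of 12. Of 45777 gene identifiers in the tables, 15087 had a mean level of at least 1 TPM (transcript abundance scaled to a fixed total per library) over these 6 libraries after rescaling and were tested. They comprised 12648 protein-coding genes, 800 small RNA genes, 759 long noncoding RNA (lncRNA) genes, 858 pseudogenes and other genes, and 22 without a match in the annotation. For the study, E12.5 ventral cord was cut out with the *Hb9::GFP* reporter, which labels motor neurons (MNs), as the guide. The animals were 3 heterozygotes and 3 homozygotes. Total RNA was sequenced after rRNA depletion, with 3 libraries per genotype at each level, brachial and lumbar. The heterozygote group was *Isl2* +/- and the KO group *Isl2* -/- in every cell of the embryo, so the controls already lacked 1 *Isl2* allele and no wild-type library was compared. The tissue was bulk and unsorted, hence fewer cells of a type and less RNA per cell cannot be told apart in any value below.

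*Isl2* encodes a LIM-homeodomain transcription factor that appears in MNs as they leave the cell cycle, together with its close relative *Isl1*. LIM-homeodomain factors, Hox proteins and limb-derived signals divide spinal MNs into columns and then into pools, each pool serving a single muscle. At limb levels the lateral motor column holds the MNs of the limb, and ETS factors such as Etv4 mark some of its pools after the axons meet the limb.

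The libraries held MN transcripts along with those of many other cells. Of the MN markers, *Mnx1* was at 43.3 to 51.5 TPM, *Slc5a7* at 27.5 to 33.7 TPM and *Chat* at 6.97 to 8.81 TPM, the progenitor gene *Sox2* was at 62.6 to 94.7 TPM, and the skeletal muscle list summed to at most 11.8 TPM. Aligned depth was 5.686 to 6.177 Gb in heterozygotes and 6.239, 5.756, and 4.485 Gb in KO replicates 1, 2, and 3. KO replicate 3 stood apart: its correlation with the other 5 libraries over protein-coding genes (Pearson's r of log2 TPM) was 0.9703 to 0.9791, against 0.9805 to 0.9942 among those 5. It also had the highest summed level of 13 blood genes, 7480 TPM against 3642 and 4360 TPM in the other KO libraries and 2621 to 4418 TPM in heterozygotes. Heterozygote replicate 3 and KO replicate 3 had no transcripts of 4 Y-linked genes, whereas the other 4 libraries had 130.1 to 139.6 TPM of them in sum, so each genotype held 1 embryo without Y-linked transcripts. A call below means a log2 fold change beyond 0.5 with an unadjusted p under 0.05 (limma), which is the study's own threshold.

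Among protein-coding genes, 42 were lower (0.332%) and 217 were higher (1.72%) in KO past the threshold. After Benjamini-Hochberg adjustment a single gene of 15087 stayed under 0.05 (0.00663%), *Uts2b*. The adjusted p was 0.332 for the other 429 genes called (126 lower and 304 higher in all), while the unadjusted p was under 0.05 in 2261 genes (15.0%). In 1407 protein-coding genes (11.1%) every KO library was below every heterozygote library, and in 1369 (10.8%) every KO library was above. With 3 libraries against 3, an exact permutation test of a single gene cannot go below p = 0.1. Past the threshold whichever single library was left out were 14 of the 42 lower and 16 of the 217 higher genes.

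**Figure D1:**
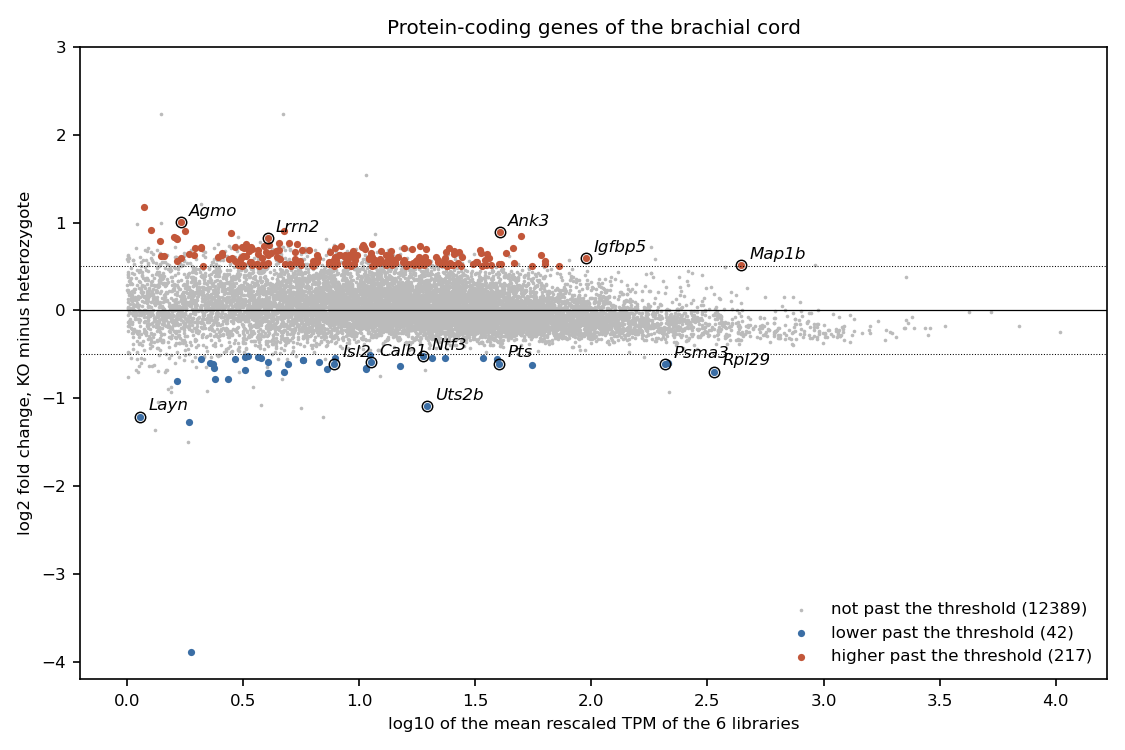
Each point is a protein-coding gene, placed by the log10 of its mean rescaled TPM over the 6 brachial libraries and by its log2 fold change, KO minus heterozygote. Blue points are the 42 genes lower and red points the 217 genes higher past the threshold, dotted lines mark a log2 fold change of 0.5 either way, and *Uts2b* stands apart at −1.09.

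*Isl2* itself was measured first. Its rescaled level was 9.14, 8.71, and 10.2 TPM in the heterozygotes and 6.31, 7.63, and 4.70 TPM in the KO libraries, so the genotypes did not overlap but transcript remained in every KO library. The KO mean was 66.4% of the heterozygote mean, a log2 fold change of −0.61 ± 0.18 (SE, unadjusted p = 0.0104, adjusted p = 0.332, limma). These are values over the whole gene (chromosome 9, 55538677 to 55547667, mm10), and they do not tell which exons the remaining reads came from. In the null allele, as the study describes it, a neomycin cassette took the place of several exons. The level left in KO is therefore not one of intact *Isl2* transcript. Without KO replicate 3, the library with the least *Isl2*, the change was −0.42 and no longer past the threshold.

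*Uts2b*, which encodes the urotensin 2B peptide, gave the clearest difference in the brachial cord. It was at 26.5, 26.3, and 27.2 TPM in heterozygotes and at 13.1, 12.4, and 12 TPM in KO. Libraries within a genotype differed by less than 1.5 TPM, and KO retained 46.8% of the heterozygote level. The log2 fold change was −1.09 ± 0.08 (SE, adjusted p = 0.0141, limma). The 18 alternative analyses gave −1.12 to −0.92, with the adjusted p under 0.05 in 11 and not in 7 of them (range 0.00069 to 0.334).

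The 250 bases before the annotated start of *Uts2b* are shown because Isl2 is a homeodomain protein and TAAT is the core of many homeodomain sites. They lie at chr16:27370240-27370489 on the minus strand of GRCm38.p6, are printed 5′ to 3′ from RefSeq, and have TAAT in capitals on either strand, where it reads ATTA on the strand shown.
Uts2b: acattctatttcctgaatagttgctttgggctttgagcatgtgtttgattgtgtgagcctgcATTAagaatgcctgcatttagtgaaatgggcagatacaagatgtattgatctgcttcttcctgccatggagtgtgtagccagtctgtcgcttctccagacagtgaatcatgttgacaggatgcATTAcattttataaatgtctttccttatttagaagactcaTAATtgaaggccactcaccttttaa
TAAT occurred 3 times in this window, and 54.9% of all 32851 annotated windows of this length hold it at least once. The longer TAATTA, which contains TAAT, was in 4.84% of all windows and was not among the letters of this window, nor was CTAATG, which 6.36% of all windows hold. The same window of *Pts* held TAAT 0 times, and those at the 2 annotated starts of *Ntf3* held it 0 times and 1 time.

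Other peptide genes were lower as well. Of 69 genes for neuropeptides and granule proteins, 34 were tested, of which 4 were lower and 0 higher past the threshold (11.8% and 0%, beside 0.332% and 1.72% of all protein-coding genes), with a median log2 fold change of −0.08 beside −0.01. Besides *Uts2b* these were *Tac1*, *Adm* and *Nts*. *Tac1*, the precursor of substance P, was at 40.6, 39.7, and 40.1 TPM in heterozygotes and at 31.5, 31.9, and 20.8 TPM in KO. The 3 heterozygotes were tightly grouped and KO replicate 3 was by far the lowest (log2 fold change −0.54 ± 0.16, unadjusted p = 0.00983, adjusted p = 0.332, limma), and without it *Tac1* was at −0.34 and not past the threshold. *Adm*, which encodes adrenomedullin, was at 3.55, 2.65, and 2.42 TPM in heterozygotes and 2.17, 1.54, and 1.80 TPM in KO. *Nts*, the neurotensin gene, was at 2.12, 3.83, and 2.88 TPM against 1.95, 1.98, and 1.48 TPM. Neither overlapped between genotypes, but leaving out single libraries took *Adm* below the threshold in 2 of 6 fits and *Nts* in 3 of 6. With the gene span trend removed, as described below, the list had 1 lower and 1 higher gene, and *Tac1*, *Adm* and *Nts* were no longer past the threshold. With TPM as deposited it had 1 lower and 2 higher genes. *Tac1* is also on a list of 14 sensory neuron markers. Of 6 markers tested 5 were below 0, with a median of −0.26, and their list's summed level was 142.7 to 146.5 TPM in heterozygotes and 116.5 to 130.4 TPM in KO, without overlap. That sum includes *Isl1*, which MNs share, and *Tac1* itself. *Pou4f1* (10.8 to 17.8 TPM), *Scn9a* (13.8 to 19.7 TPM), *Tlx3* (3.95 to 8.67 TPM) and *Calca* (2.05 to 5.53 TPM) were present over the 6 libraries, whereas *Runx3*, *Trpv1* and *Scn10a* were at most at 0.0187 TPM. The part of sensory neurons in the lower peptide genes was not tested.

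*Ntf3*, which encodes the neurotrophin that proprioceptive sensory neurons depend on, was lower by a smaller but equally steady margin. Its level was 21.6, 22.2, and 22.8 TPM in heterozygotes and 15.2, 15.1, and 15.9 TPM in KO, a gap several times wider than the spread within either genotype (log2 fold change −0.52 ± 0.08, unadjusted p = 0.000155, adjusted p = 0.332, limma). Of 26 neurotrophic factors and receptors tested, *Ntf3* was the 1 lower gene and 3 receptor genes were higher (3.85% and 11.5%, beside 0.332% and 1.72% of all protein-coding genes), with a median of 0.12. The higher count was 0 without KO replicate 3, 0 without heterozygote replicate 3 and 1 with the span trend removed, while *Ntf3* was past the threshold in each. With TPM as deposited *Ntf3* was at −0.35, below the threshold, and 4 genes of the list were higher. *Cntfr*, the receptor of ciliary neurotrophic factor, went from 7.65, 7.43, and 5.97 TPM to 10.8, 8.34, and 14.1 TPM without overlap. For *Igf1r*, the insulin-like growth factor 1 receptor, and for *Ntrk3*, the receptor that neurotrophin 3 binds, KO replicate 1 lay within the range of the heterozygotes (18.4 and 15.04 TPM), and the higher KO means came from the other KO libraries. The GDNF receptor genes *Ret* and *Gfra1* had log2 fold changes of 0.12 ± 0.14 and 0.03 ± 0.08 and were not past the threshold.

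*Calb1*, the gene of the calcium buffer calbindin, was the only called member among 37 calcium-binding and annexin genes tested (2.70% lower, beside 0.332% of all protein-coding genes). It was at 13.0, 13.6, and 14.1 TPM in heterozygotes and 9.32, 9.43, and 8.26 TPM in KO, again without overlap (log2 fold change −0.59 ± 0.10, unadjusted p = 0.000385, adjusted p = 0.332, limma). The list as a whole had 30 members below 0 and 7 above, with a median of −0.18, while 51.7% of all protein-coding genes were below 0. Its median deviation was −0.28 in KO replicate 3 but −0.01 and 0.02 in KO replicates 1 and 2. Without KO replicate 3 the list's median was −0.10. With TPM as deposited *Calb1* was at −0.41, below the threshold, and the list's median was 0.00.

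**Figure D2:**
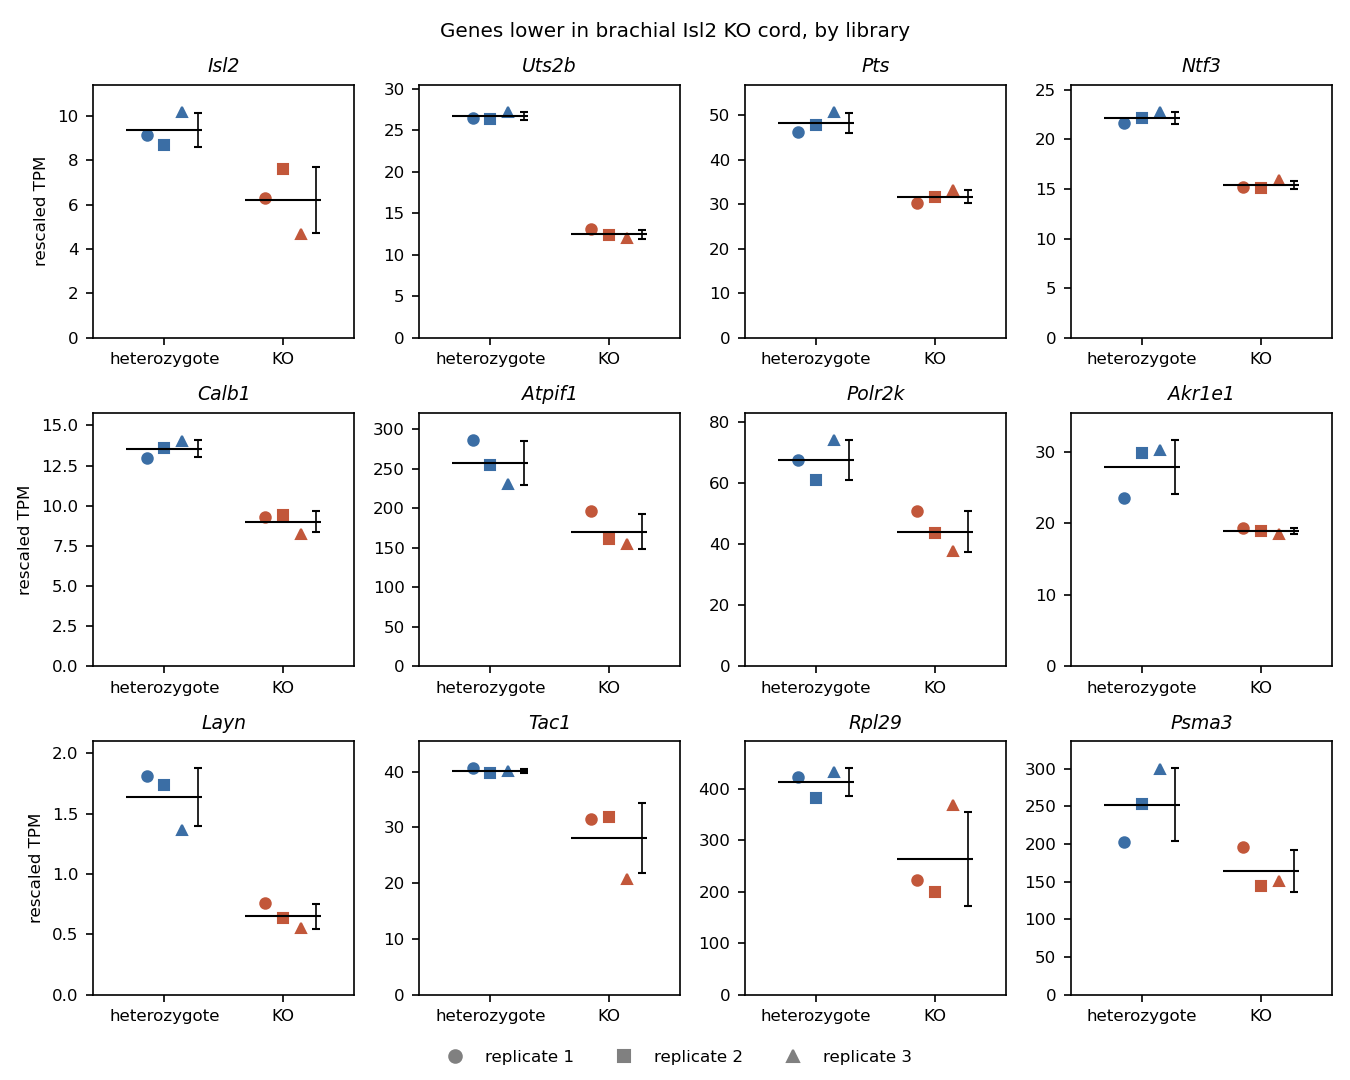
Rescaled TPM of *Isl2* and 11 other genes that were lower in brachial KO cord past the threshold, 1 point per library, with replicates 1, 2, and 3 as circles, squares, and triangles. Horizontal lines are means of 3 libraries and bars are ± 1 SD, and in *Uts2b*, *Pts*, *Ntf3* and *Calb1* the gap between genotypes is several times the SD.

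The other lower genes of smallest p, picked among those without overlap between genotypes, had varied roles. *Pts*, which makes 6-pyruvoyltetrahydropterin on the way to the cofactor tetrahydrobiopterin, was at 46.3, 47.7, and 50.8 TPM in heterozygotes and 30.2, 31.7, and 33.1 TPM in KO (log2 fold change −0.61 ± 0.07, unadjusted p = 4.51e-05, adjusted p = 0.332, limma). *Atpif1*, an inhibitor of the mitochondrial ATP synthase, was at 286, 254, and 230 TPM against 196, 160, and 154 TPM. *Polr2k*, a small subunit shared by the nuclear RNA polymerases, was at 67.5, 60.9, and 74.0 TPM against 50.8, 43.5, and 37.6 TPM. *Pts* had the narrowest spread within genotypes of the 3. The aldo-keto reductase *Akr1e1* was at 23.6 to 30.3 TPM in heterozygotes and 18.5 to 19.4 TPM in KO. *Layn*, whose product layilin binds hyaluronan, was near the lower limit of the test at 1.36 to 1.81 TPM in heterozygotes and 0.554 to 0.758 TPM in KO, with the larger log2 fold change of −1.21 ± 0.27. *Tmem254a*, *Tmem254b* and *Tmem254c* are near-identical neighbours that were lower together (log2 fold changes −0.67, −0.66, and −0.65), and since the authors' quantification could split reads among them they count as one uncertain observation. In *LOC115488130* all KO libraries and heterozygote replicate 3 were listed at 0, so its fold change is not interpreted.

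The 14 lower protein-coding genes past the threshold in all 6 fits without 1 library were *Uts2b*, *Pts*, *Ntf3*, *Calb1*, *Atpif1*, *Polr2k*, *Layn*, the 3 *Tmem254* copies, *Crebl2*, *Depp1*, the metallothionein *Mt1* and the ribosomal protein gene *Rpl29*. *Crebl2*, *Depp1* and *Mt1* were named after their values were seen. Of all 42, 38 had no overlap between genotypes, the exceptions being *Mnat1*, *Lhfpl5*, *Lgals7* and *LOC115488130*. Those not described elsewhere, named here to account for every lower gene, were the G protein γ subunit *Gng11*, *Rgs10*, *Dnajc19*, *Gamt*, *Rps27rt*, *Nupr1l*, *Mterf1b*, *Trdmt1*, *Slc35f4*, *Gzmm*, *Tst*, *Them6*, *3110009E18Rik*, *Pxmp2*, *D830030K20Rik*, *E130311K13Rik* and the stress-response gene *Ier3*, with log2 fold changes from −1.27 (*Nupr1l*) to −0.51 (*Gng11*). In 30 of the 42 the lowest library was KO replicate 3, and in 24 the highest was heterozygote replicate 3.

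The 10 higher genes described first were picked as those of smallest p among genes whose genotypes do not overlap. *Gpatch8*, which encodes a G-patch protein, was at 9.30, 10.5, and 10.1 TPM in heterozygotes and 13.9, 15.1, and 15.4 TPM in KO (log2 fold change 0.57 ± 0.10, unadjusted p = 0.000422, adjusted p = 0.332, limma). *Hint3*, a histidine triad hydrolase gene, was at 7.59, 6.93, and 9.24 TPM against 14.0, 12.6, and 12.6 TPM (0.72 ± 0.13, unadjusted p = 0.000582, adjusted p = 0.332, limma). *Igfbp5*, whose product binds insulin-like growth factors, was at 77.5, 82.9, and 65.0 TPM against 97.3, 123.2, and 120.4 TPM (0.60 ± 0.12, unadjusted p = 0.0014, adjusted p = 0.332, limma). All 3 rose, although *Igfbp5* dropped below the threshold in 1 of 6 fits without a library. *Agmo*, an alkylglycerol monooxygenase that uses tetrahydrobiopterin, was at 0.984, 0.977, and 1.36 TPM in heterozygotes and 2.34, 2.33, and 2.21 TPM in KO (1.0 ± 0.22). The zinc finger gene *Zbtb25* was at 4.22 to 4.49 TPM against 6.08 to 6.54 TPM, and the leucine-rich repeat gene *Lrrn2* at 2.17 to 3.37 TPM against 4.45 to 5.61 TPM. *Nrsn2*, *Cdadc1*, the zinc transporter *Slc39a9* and the clustered protocadherin *Pcdhga7* completed the 10, with log2 fold changes of 0.57 to 0.65.

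Over all higher genes the libraries were uneven. The genotypes did not overlap in 142 of the 217. In 192 of the 217 the highest library was KO replicate 3, in 192 the lowest was heterozygote replicate 3, and in 172 both held, beside 15.15% of all protein-coding genes tested. The median deviation of the 217 from their 6-library means was 0.65 on the log2 scale in KO replicate 3, 0.26 in KO replicate 2 and −0.03 in KO replicate 1. In heterozygotes it was −0.22, −0.14, and −0.53. KO replicate 1 was therefore close to the overall mean for the typical higher gene. Without KO replicate 3 the test called 37 protein-coding genes higher, 31 of them among the 217, and without heterozygote replicate 3 it called 40, 34 of them among the 217. Without KO replicate 1 it called 773. Past the threshold in all 6 such fits were 16 of the 217, including *Gpatch8*, *Hint3*, *Zbtb25*, *Agmo*, *Pcdhga7*, *Lrrn2*, *Nrsn2*, *Trpc5* and *Glra1*. These 2 libraries are also the ones without Y-linked transcripts, 1 in each genotype, and with embryo sex as a term 170 of the 217 stayed past the threshold. Since each genotype held 1 such library, the term left fold changes as they were (*Isl2* −0.61 in both fits) and altered only their p. That count therefore cannot show whether sex had a part in the pattern, which was not tested.

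**Figure D3:**
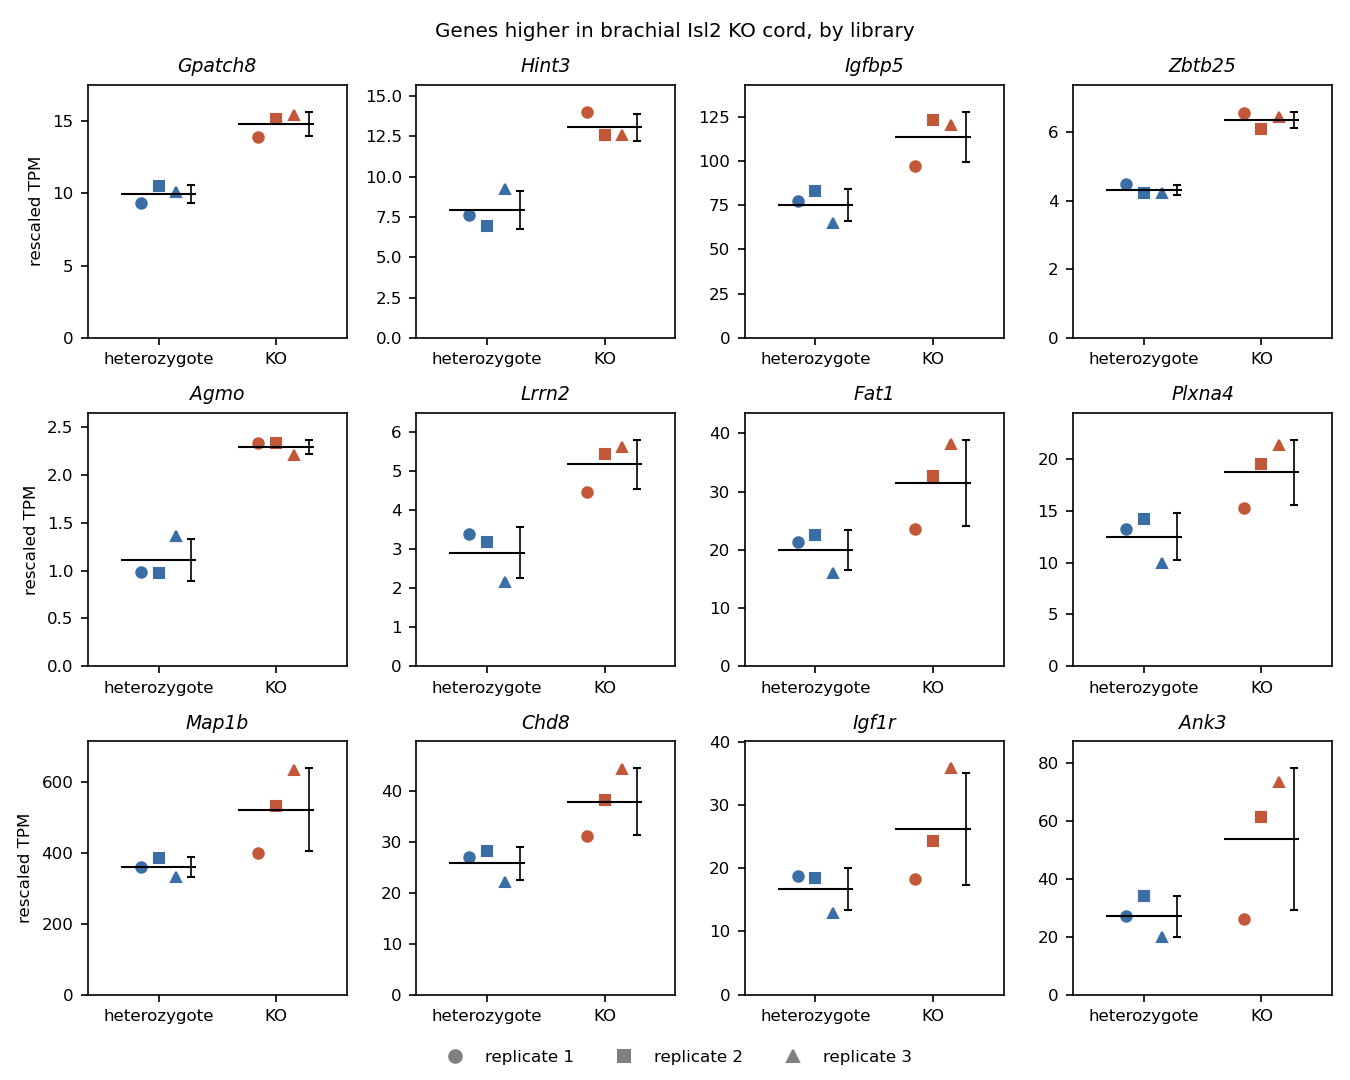
Rescaled TPM of 12 genes that were higher in brachial KO cord past the threshold, 1 point per library, with replicates 1, 2, and 3 as circles, squares, and triangles. Lines are means of 3 libraries and bars ± 1 SD. The upper rows hold genes whose genotypes are well separated, and in *Igf1r* and *Ank3* KO replicate 1 (circle) lies among the heterozygotes while KO replicate 3 (triangle) is the highest.

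The changes ran with gene length. Genes that were lower spanned a median of 7.51 kb and genes that were higher 88.1 kb, beside 25.0 kb over all protein-coding genes tested. Among 1482 genes under 5 kb, 15 were lower and 2 higher, with a median log2 fold change of −0.14. Among 831 genes over 200 kb, 1 was lower and 49 were higher, with a median of 0.19. The trend differed between libraries of a genotype: for the longest genes the median deviation was 0.16 in KO replicate 2 and 0.18 in KO replicate 3 but −0.07 in KO replicate 1, and −0.12, 0.00, and −0.16 in the heterozygotes. When each library's trend on gene span was removed, 29 of the 42 lower genes and 104 of the 217 higher genes were still past the threshold. Of the 10 higher genes described above only *Gpatch8* lost its call (0.47), as did *Hivep2* among the 16 that held without any 1 library and *Atpif1* (−0.50) among the 14 lower ones. The part of gene length in the higher genes beyond that was not tested.

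**Figure D4:**
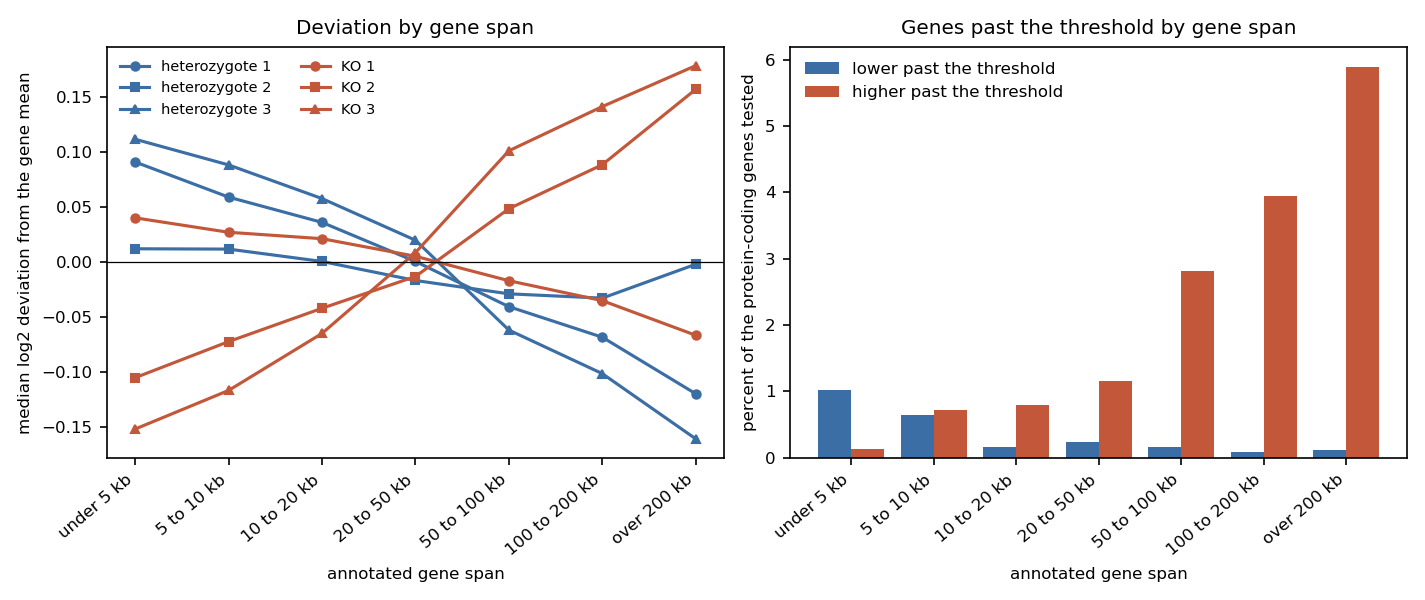
Left, the median log2 deviation of protein-coding genes from their 6-library means in bins of annotated gene span, 1 line per brachial library (blue heterozygote, red KO). Right, the percent of genes in each bin that were lower (blue) or higher (red) past the threshold. KO replicates 2 and 3 climb with span while heterozygotes 1 and 3 and, less steeply, KO replicate 1 descend.

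Genes of axon growth and contact were among the higher ones. Of 83 axon guidance genes tested, 0 were lower and 8 higher (9.64%, beside 1.72% of all protein-coding genes), with 70 members above 0 and a median of 0.22. The semaphorin receptor *Plxna4* was at 13.3, 14.3, and 10.0 TPM in heterozygotes and 15.3, 19.5, and 21.4 TPM in KO (0.58 ± 0.17, unadjusted p = 0.00987, adjusted p = 0.332, limma). *Sema4g* was at 4.99 to 7.30 TPM against 7.75 to 12.1 TPM, and the netrin receptor *Dcc* at 21.9 to 30.3 TPM against 33.4 to 61.4 TPM. All these ranges were separate, with KO replicate 1 the lowest KO library in each. Without KO replicate 3 the count fell to 1 and without heterozygote replicate 3 to 0, while 4 were higher with the span trend removed, which took *Plxna4* and *Dcc* to 0.37 and 0.38 and below the threshold. The list's genes had a median span of 46.3 kb.

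Cell adhesion genes also lay mostly above 0. Of 153 tested, 0 were lower and 10 higher (6.54%, beside the same 1.72%), with a median of 0.27 and 130 members above 0. The atypical cadherin *Fat1* was at 21.2, 22.5, and 16.0 TPM in heterozygotes and 23.5, 32.7, and 38.1 TPM in KO. *Pcdhga7* was at 3.34, 3.07, and 3.22 TPM against 4.70, 4.59, and 6.13 TPM and *Pcdha5* at 1.89 to 2.41 TPM against 3.03 to 3.71 TPM, each without overlap. Of the 10, 5 were clustered protocadherins, whose variable exons share constant exons within a cluster, so the split of reads among them is uncertain. The count was 4 without KO replicate 3, 2 without heterozygote replicate 3 and 5 with the span trend removed.

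Chromatin regulators, a list of 119 tested genes with a median span of 62.4 kb, had 0 lower and 10 higher members (8.40%, again beside 1.72%) and a median of 0.21. *Chd8*, a chromatin remodeller, was at 27.1, 28.2, and 22.2 TPM in heterozygotes and 31.3, 38.2, and 44.3 TPM in KO (0.55 ± 0.15, unadjusted p = 0.00579, adjusted p = 0.332, limma). The histone methyltransferase genes *Ash1l* and *Nsd3* had log2 fold changes of 0.60 and 0.55. Their genotypes did not overlap, but the list's count was 0 without KO replicate 3, 1 without heterozygote replicate 3 and 5 with the span trend removed, which took *Chd8*, *Ash1l* and *Nsd3* to 0.48, 0.48, and 0.43 and below the threshold.

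Lists of excitability and synapses are to be read beside the 0.332% lower and 1.72% higher of all protein-coding genes. Of 134 ion channel genes tested, 0 were lower and 3 higher (2.24%), among them the cation channel *Trpc5* at 2.14 to 2.83 TPM against 3.09 to 4.81 TPM and the chloride channel *Clcn1* at 1.62 to 1.88 TPM against 2.22 to 2.73 TPM. Of 64 transmitter receptor genes, 2 were higher (3.12%) and 0 lower, the glycine receptor subunit *Glra1* (3.57 to 5.59 TPM against 6.49 to 8.97 TPM) and the NMDA receptor subunit *Grin2c* (0.668 to 1.59 TPM against 1.83 to 2.19 TPM). The 78 genes of synaptic vesicles had 1 higher member (1.28%), the dynamin *Dnm3*, in which the genotypes overlapped. Of 56 cytoskeletal genes 3 were higher (5.36%), the microtubule-associated *Map1b* (331 to 386 TPM against 400 to 632 TPM) and the ankyrins *Ank2* and *Ank3*, whose KO replicate 1 lay among the heterozygotes. Without KO replicate 3 or without heterozygote replicate 3, the counts of higher genes were 1 for ion channels, 2 for transmitter receptors and 0 for both other lists. Without KO replicate 2 transmitter receptors had 1. Removing the span trend gave 2 for ion channels, 2 for transmitter receptors, 0 for synaptic vesicles and 1 for the cytoskeleton. *Dnm3*, *Map1b*, *Ank2* and *Ank3* then lost their calls, at 0.34, 0.41, 0.28, and 0.68.

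Short, highly expressed genes of basic cell functions lay on the other side of 0, by less than the threshold. Of 83 cytosolic ribosomal protein genes, 81 had log2 fold changes below 0, with a median of −0.26, but only *Rpl29* was past the threshold (1.2%, beside 0.332% of all protein-coding genes). *Rpl29* was at 424, 383, and 433 TPM in heterozygotes and 223, 200, and 369 TPM in KO, and near-identical processed copies of ribosomal protein genes make its read assignment uncertain. Of 94 nuclear genes of oxidative phosphorylation, 92 were below 0 (median −0.27) and 0 were called, and 71 of 78 mitochondrial ribosome genes were below 0 (median −0.21) with 0 called. Of 44 proteasome genes *Psma3* was the 1 lower gene (2.27%), at 203, 254, and 299 TPM against 196, 145, and 151 TPM. The same genes deviated within genotypes. For oxidative phosphorylation the median deviation was 0.13, 0.05, and 0.22 in heterozygotes and 0.00, −0.17, and −0.23 in KO, and the list's median was −0.20 with the span trend removed and −0.17 with quantile normalization. For the cytosolic ribosomal proteins these medians were −0.16 and −0.08, for the mitochondrial ribosome −0.13 and −0.18, and for the proteasome −0.15 and −0.10. The 13 protein-coding genes of the mitochondrial genome lay on the other side, with a median of 0.38 and 0 called, KO replicate 3 deviating by 0.63 and KO replicate 2 by −0.25, and without KO replicate 3 their median was −0.11. Of 23 immediate early and stress genes 17 were below 0 (median −0.13), with *Ier3* the 1 lower gene, which lost its call with the span trend removed. In the values as deposited, without rescaling between libraries, the median log2 fold change of all protein-coding genes was 0.16 in place of −0.01, and 8 protein-coding genes were lower and 941 higher.

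**Figure D5:**
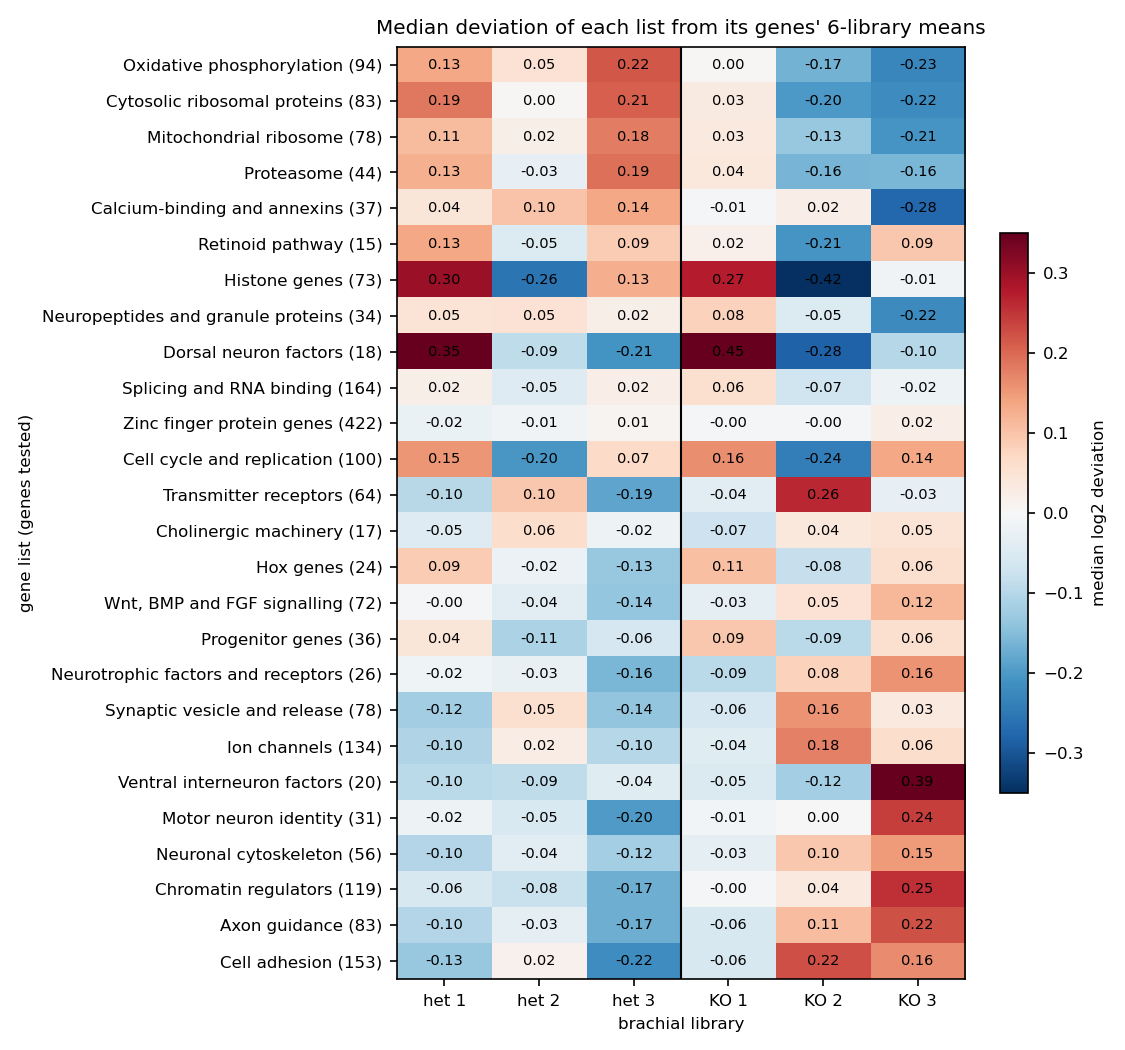
Median log2 deviation of the tested genes of each functional list from their 6-library means, with 1 column per brachial library and the number of genes tested beside each list name. Oxidative phosphorylation, ribosomal and proteasome lists are above 0 in heterozygotes 1 and 3 and below 0 in KO 2 and 3, while cell adhesion and axon guidance do the reverse and KO 1 stays near 0 in all of these.

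Of 31 genes of MN identity tested, *Isl2* was the 1 lower and *Nkx6-1* the 1 higher gene (3.23% each, beside 0.332% and 1.72% of all protein-coding genes), and the median was 0.15. Without KO replicate 3 neither was past the threshold, and *Nkx6-1* was also not past it without heterozygote replicate 2. *Isl1* was at 56.5, 66.0, and 66.5 TPM in heterozygotes and 53.8, 49.1, and 53.4 TPM in KO, which did not overlap, but its log2 fold change of −0.27 ± 0.09 (unadjusted p = 0.0148, adjusted p = 0.332, limma) was under the threshold of size. *Mnx1*, which encodes Hb9, had a log2 fold change of 0.08 ± 0.08, and *Lhx3*, a factor of the median motor column, 0.08 ± 0.14. *Foxp1*, the factor of the lateral motor column, was at 28.5, 29.0, and 27.6 TPM against 29.9, 31.7, and 46.1 TPM. *Lhx1*, which marks a division of that column and also interneurons, was at 12.1, 9.87, and 7.45 TPM against 12.2, 10.5, and 27.9 TPM. Every KO library was above every heterozygote library for *Foxp1* but not for *Lhx1*, KO replicate 3 was the highest in both, and without it the log2 fold changes were 0.12 and 0.23. Neither passed the threshold (unadjusted p = 0.0792 and 0.0979, adjusted p = 0.35 and 0.367, limma). *Nkx6-1* was at 2.5 to 3.02 TPM in heterozygotes and 3.60, 3.90, and 6.13 TPM in KO. Of 17 genes of the cholinergic machinery, 0 were called. *Chat* was at 8.02, 8.75, and 8.81 TPM against 7.34, 6.97, and 7.84 TPM (−0.21 ± 0.11, unadjusted p = 0.0912, adjusted p = 0.361, limma), and *Slc18a3*, the vesicular acetylcholine transporter, had a log2 fold change of 0.11 ± 0.10. Of 24 *Hox* genes tested, 0 were called.

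Several genes that the study followed in the lumbar cord were read here at the brachial level. For *Etv4* the study had brachial data of its own. Its RT-PCR gave a slightly lower KO mean there without a significant difference, its staining showed Etv4 kept, and it reported the loss as selective for lumbar pools. *Etv4* was at 31.7, 27.7, and 28.5 TPM in heterozygotes and 23.4, 21.6, and 21.6 TPM in KO, so KO retained 75.8% and the genotypes did not overlap, with a log2 fold change of −0.40 ± 0.08 (unadjusted p = 0.00168, adjusted p = 0.332, limma) that was below the threshold of size. The intermediate filament gene *Prph* was at 335, 328, and 311 TPM against 276, 306, and 236 TPM (−0.26 ± 0.10), and the annexin *Anxa2* at 124, 129, and 126 TPM against 106, 116, and 102 TPM (−0.23 ± 0.07). Both were lower in every KO library than in any heterozygote library by less than the threshold. *Kcnab1*, a potassium channel β subunit gene, was at 6.44 to 7.69 TPM against 7.65 to 10.3 TPM. *C1ql3* and *A730046J19Rik* had log2 fold changes of 0.00 ± 0.09 and 0.00 ± 0.21, and *Nos1* was under 1 TPM in all brachial libraries.

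Other lists of neural development and gene regulation were read in the same way. Of 36 progenitor genes 3 were higher (8.33%, beside 1.72% of all protein-coding genes), the Sonic hedgehog receptor *Ptch1* (18.0 to 22.1 TPM against 23.3 to 39.2 TPM), the proneural *Neurog1* (1.98 to 3.13 TPM against 2.96 to 4.42 TPM) and *Nkx6-1*, and the count was 0 without KO replicate 3 and 1 without heterozygote replicate 3 or 2. Of 20 ventral interneuron factors 1 was higher, *Gata3* of the V2b lineage, at 1.27 to 1.61 TPM against 2.09, 2.11, and 3.19 TPM. Of 100 cell cycle genes *Cdk6* was the 1 higher gene, and of 72 genes of Wnt, BMP and FGF signalling the activin receptor *Acvr2b* and the BMP receptor *Bmpr2* were the 2 higher ones. Of 164 splicing and RNA-binding genes 4 were higher, led by *Celf2*, *Hnrnpa3* and *Hnrnpul2* (log2 fold changes 0.52, 0.53, and 0.51), and of 422 zinc finger genes 5 were higher, led by *Zbtb25*, *Zfp462* and *Zfp369*, a share of 1.18% beside the 1.72% of all protein-coding genes. Without replicate 3 of either genotype the splicing, signalling and cell cycle counts were 0, and the zinc finger count was 1 without KO replicate 3 and 2 without heterozygote replicate 3. *Gata3* lost its call without KO replicate 3 and without heterozygote replicate 2. The 73 histone genes, 18 dorsal neuron factors and 15 genes of the retinoid pathway had 0 called members. Histone and dorsal lists varied with the replicate instead: the histone median deviated by 0.30 and 0.27 in replicates 1 of heterozygote and KO and by −0.26 and −0.42 in replicates 2.

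Markers of other cells were read beside these results. Of 11 blood genes tested, all had log2 fold changes above 0 (median 0.48) and 0 were called, with KO replicate 3 the highest library. The 10 floor plate genes tested had a median of 0.20, and their summed level was 346.7 to 376 TPM in heterozygotes and 367.3 to 454.2 TPM in KO. KO replicate 3 was the highest, and without it their median was 0.08. Mesenchyme (9 genes tested), endothelium (15), microglia (9), and Schwann cell or crest genes (9) had medians between −0.10 and 0.09 with 0 called. The summed level of the Schwann cell or crest list, most of it *Fabp7* (1485 to 2429 TPM), was 2190 to 2499 TPM in heterozygotes and 1554 to 2086 TPM in KO, without overlap, and its median deviation in KO replicate 3 was −0.44. The sensory neuron list described with *Tac1* was the 1 list of other cells with a called gene (1 of 6, 16.7%, median −0.26), and without KO replicate 3 it had 0. The part of these cells in the called genes was not tested.

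*Isl2* lies on chromosome 9, and so did several of the lower genes. Within 10 Mb of it 152 other protein-coding genes were tested, of which 3 were lower (1.97%) and 2 higher (1.32%), beside 0.332% and 1.72% of all protein-coding genes. The 3 lower ones were *Slc35f2* at 1.77 Mb, *Layn* at 4.48 Mb and *Pts* at 5.02 Mb from the start of *Isl2*, all on its proximal side. *Slc35f2*, a solute carrier gene named after its values were seen, was at 9.39, 10.3, and 8.34 TPM in heterozygotes and 6.33, 7.47, and 5.49 TPM in KO. The 152 genes had a median log2 fold change of −0.01. Embryos selected as *Isl2* -/- carry both copies of the chromosome 9 segment that came with the null allele, and the effect of that segment cannot be told apart from that of *Isl2* for these genes.

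Noncoding RNAs were read separately. Among lncRNA genes 13 were lower (1.71%) and 24 higher (3.16%) past the threshold, and among pseudogenes and other genes 33 were lower (3.85%) and 17 higher (1.98%). Among the 800 small RNA genes 38 were lower (4.75%) and 45 higher (5.62%), the genotypes being separate in 24 and 34 of them, and no small RNA had an adjusted p under 0.05. The class goes by annotated type and held some longer genes. Among the higher ones these were *2310067E19Rik*, which spans 48175 bases, *mt-Rnr2* (1582 bases) and *mt-Rnr1* (955 bases). TPM divides by length, so a few reads move a gene of about 100 bases far, and the number called rests on the lower limit: with a mean TPM of at least 5 it was 25 lower and 9 higher.

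By type, the lower small RNAs were mostly structural and the higher ones mostly microRNA (miRNA) loci. Of 106 small nuclear RNA genes tested, 15 were lower and 3 higher, with a median log2 fold change of −0.31, and many are near-identical copies that share reads. Of 224 miRNA loci, 8 were lower and 23 higher, with a median of 0.11. The 298 small nucleolar RNAs were even, at 8 lower and 8 higher, and the 123 tRNA genes had 6 lower and 5 higher. Of all 800 tested, 522 (65.2%) lay inside a longer gene on the same strand, as did 34 of the 45 higher and 12 of the 38 lower ones. Types differed in this, with 95.0% of small nucleolar RNAs, 69.6% of miRNA loci, 47.2% of small nuclear RNAs and 9.76% of tRNA genes tested inside one. Within types the called genes differed too: 1 of 15 lower and 3 of 3 higher small nuclear RNAs lay inside a longer gene, and 3 of 8 lower and 19 of 23 higher miRNA loci did. In a total RNA library, reads over an intronic miRNA locus can come from the host transcript, so these values are not levels of mature miRNAs.

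The mature miRNAs of the 3 higher loci of smallest p are shown with the seed (bases 2 to 8) in capitals, to let the loci be recognised and their seeds compared. Sequences are those RefSeq gives on GRCm38.p6, and the let-7a-5p sequence, listed there under another let-7a locus, was found unchanged in the hairpin of *Mirlet7a-2*.
mmu-let-7a-5p: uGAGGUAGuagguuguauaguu
mmu-let-7a-2-3p: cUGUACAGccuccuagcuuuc
mmu-miR-6975-5p: gCUGGGGAgaaagggguuuggca
mmu-miR-6975-3p: uCUCUCCUuucuccuccuag
mmu-miR-7237-5p: aUGGUAGCuugugacaggacuggc
mmu-miR-7237-3p: cAUCCUGUugagcuuaccgagc
No seed was shared among them. The let-7a-5p sequence lies at chr9:41536732-41536753 and the miR-6975-5p and miR-7237-5p sequences at chr17:35244080-35244102 and chr8:121978024-121978047, all on the plus strand.

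*Mirlet7a-2*, a locus of the let-7 family that is known for its rise as cells differentiate, was at 2.12, 1.70, and 2.27 TPM in heterozygotes and 4.56, 6.37, and 6.29 TPM in KO (log2 fold change 1.45 ± 0.20, unadjusted p = 9.29e-05, adjusted p = 0.332, limma). It lies within the lncRNA gene *Mir100hg*, whose own log2 fold change was 0.28 ± 0.14. *Mir6975*, inside *Ddx39b*, was at 2.90 to 4.26 TPM against 5.90 to 8.16 TPM, and *Mir7237*, inside *Banp*, at 0.687 to 1.86 TPM against 3.06 to 5.19 TPM. Host genes were at 0.00 ± 0.08 and 0.18 ± 0.16, so neither was past the threshold. The small nucleolar RNA gene *Gm24507* (1.48 to 2.16 TPM against 3.34 to 5.16 TPM) and the tRNA gene *n-TEttc5* (1.44 to 2.22 TPM against 3.14 to 6.83 TPM) completed the 5 higher small RNAs of smallest p. Both mitochondrial ribosomal RNAs were higher too, *mt-Rnr2* at 1986, 2335, and 1575 TPM against 3156, 2731, and 3519 TPM, in libraries from which ribosomal RNA had been depleted.

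The lower small RNAs were led by *Gm22513*, a small nuclear RNA gene, at 29.2, 28.8, and 26.5 TPM in heterozygotes and 12.9, 14.5, and 17.5 TPM in KO (log2 fold change −0.92 ± 0.12, unadjusted p = 7.35e-05, adjusted p = 0.332, limma). *Mir3960* was at 10.9, 8.87, and 9.10 TPM against 6.46, 3.87, and 3.47 TPM. *Snora78*, a small nucleolar RNA, was at 40.1 to 54.1 TPM against 29.8 to 35.2 TPM, and its host *Snhg9* was lower as well (−0.59 ± 0.23). The tRNA gene *n-TTagt6* was at 1.48 to 1.67 TPM against 0.463 to 0.858 TPM and the small nucleolar RNA gene *Gm22422* at 11.2 to 16.2 TPM against 4.74 to 9.36 TPM. All 5 had separate genotypes. Of the called small RNAs 9 lower and 17 higher ones were past the threshold in all 6 fits without 1 library. *Snora78* and *n-TTagt6* were not among these 9.

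The same contrast in the lumbar cord was set beside the brachial one to see where they differ. *Uts2b* was at 20.6, 20.4, and 21.4 TPM in lumbar heterozygotes and 8.85, 8.40, and 10.6 TPM in lumbar KO, and the lumbar effect differed from the brachial one by −0.08 ± 0.13 on the log2 scale (unadjusted p = 0.561, adjusted p = 0.873, 12-library limma fit). *Ntf3* was at 21.8 to 26.2 TPM against 12.9 to 19 TPM in the lumbar cord, a difference between levels of −0.15 ± 0.17 (unadjusted p = 0.399, adjusted p = 0.822, limma). Lumbar *Tac1* was at 22.8, 29.0, and 15.9 TPM in heterozygotes and 18.1, 7.72, and 24.0 TPM in KO, and lumbar *Nts* at 0.803 to 1.85 TPM against 0.527 to 1.51 TPM. Genotypes overlapped for both, and the differences between levels were −0.01 ± 0.49 and 0.06 ± 0.54 on the log2 scale. For the difference between levels the unadjusted p was under 0.05 in 673 of 14940 genes (4.50%), and the adjusted p in 0 (limma). *Akr1e1* was lower at the brachial level and at 19.5 to 23.0 TPM in heterozygotes against 24.4 to 28.0 TPM in KO at the lumbar level (difference 0.85 ± 0.15, unadjusted p = 8.53e-05, adjusted p = 0.637, limma). *Calb1* was at 3.72 to 5.27 TPM against 3.40 to 4.88 TPM in the lumbar cord (difference 0.55 ± 0.22, unadjusted p = 0.0263, adjusted p = 0.789, limma). *Etv4* was at 8.34 to 14.7 TPM against 4.51 to 6.08 TPM in the lumbar cord (difference −0.61 ± 0.25, unadjusted p = 0.0298, adjusted p = 0.789, limma), and *Kcnab1* had a lumbar log2 fold change of −0.78 (difference −1.12, unadjusted p = 7.58e-05, adjusted p = 0.637, limma). None of these differences passed the adjustment.

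Of the 42 lower genes 41 were tested in the 12-library fit, of which 32 had a lumbar log2 fold change below 0, with a median of −0.11, beside 54.9% of all protein-coding genes and a median of −0.01. Of 216 higher genes tested there, 163 were above 0 in the lumbar cord, with a median of 0.11, while 54.9% of all protein-coding genes were below 0. The gene *Hint3* was at 6.68, 8.27, and 10.4 TPM in lumbar heterozygotes and 12.7, 10.97, and 6.41 TPM in lumbar KO, so its genotypes overlapped there. *Igfbp5* had lumbar levels of 37.2 to 63.4 TPM and 32.8 to 64.1 TPM, also overlapping. Same-numbered brachial and lumbar libraries differed in the presence of Y-linked transcripts in 3 of 6 cases, so a shared number does not mark a shared embryo.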

How the data were processed

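Total RNA of E12.5 ventral cord was sequenced by the authors after rRNA depletion. Their tools were FastQC 0.11.7, Trimmomatic 0.38, HISAT2 2.1.0, Bowtie2 2.3.4.1 and StringTie 2.1.3b on the mm10 genome (versions from the submitters' processing notes). The deposited TPM values are scaled by the authors to a fixed total per library, the deposited FPKM values to gene length and mapped fragments, and the deposited coverage is the mean per-base signal of a gene. No counts were used here, so the authors' DESeq2 comparison was not repeated. The ratio of coverage to FPKM was constant within 1% for 91.6% to 92.2% of the single-transcript genes and gave the aligned bases. No interval for a single library can be read from these values.

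Symbols and coordinates were taken from RefSeq (GRCm38.p6), which named 45679 of 45777 identifiers, 96.2% of them with identical coordinates, and 6 identifiers on more than 1 line were summed. TPM of the 6 brachial libraries was divided by median-of-ratios factors of 0.89 to 1.19, genes with a mean of at least 1 were kept, and log2(TPM + 0.1) was fitted with limma 3.58.1 in R 4.3.3 (eBayes with a trend). Fold changes are on this scale, which understates changes of low genes. P-values measure the spread between 3 animals per group and are two-sided. The difference between levels was fitted over 12 libraries. Tables and plots used Python 3.11.15, pandas 2.3.3 and matplotlib 3.10.9.

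Genes named are *Isl2*, those with an adjusted p under 0.05, the 10 lower and 10 higher protein-coding genes and 5 lower and 5 higher small RNAs of smallest p past the threshold (protein-coding ones without overlap), up to 3 called members per list and direction, genes the study followed, and 7 MN genes. A called ion channel gene that this rule names is not reported here. The members, lists and tests were chosen with earlier results of these data known, and list entries were corrected after the symbols in the files were seen. Alternatives covered scaling, filter, pseudocount, FPKM, block, other fits and single libraries left out. In simulated data, 92.5% of 200 genes changed by 1 on the log2 scale among 15087 were called, along with 233 unchanged ones.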

Additional observations from a re-analysis of the deposited data

How the results depend on the processing

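Low small RNA levels depend on the lower limit, and KO replicate 3 had the least depth. Removal of the trend on gene span and embryo sex as a term were added after seeing the data. The cause of each shift below was not tested, apart from limits on levels, which change how many genes are tested.

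Lower protein-coding genes numbered 8 with TPM as deposited, 22 at a mean TPM of at least 5, 98 with no filter and 64 with quantile normalization, and 38 to 106 when single libraries were left out. Higher ones numbered 941, 143, and 139 with TPM as deposited, a mean of at least 5 and a pseudocount of 1, 133 with the span trend removed, and 37 to 773 without single libraries. Lower small RNAs numbered 23 with TPM as deposited, 25 at a mean of at least 5 and 26 to 100 without single libraries. Higher small RNAs numbered 23 with FPKM, 75 as deposited, 9 at a mean of at least 5, 95 with no filter and 39 to 68 without single libraries. Genes with an adjusted p under 0.05 numbered 0 with TPM as deposited, without an eBayes trend and with embryo sex, 2 with all 12 libraries and 0 to 11 without single libraries. For *Isl2* the change was −0.43 with TPM as deposited and −0.76 to −0.42 without single libraries.

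With the replicate number as a block, 73 small RNAs were lower and 0 genes had an adjusted p under 0.05. *Uts2b* was then at −1.09 (adjusted p = 0.334, limma). The correlations of same-numbered heterozygote and KO libraries, over deviations from genotype means, were 0.119, 0.296, and 0.0591. Those of unlike-numbered libraries were −0.237 to 0.117, and for each KO library the same-numbered heterozygote gave the highest value. The main fit did not pair the numbers, and whether they mark a shared batch was not tested. For the difference between levels, genotype and replicate number shared by both levels as a block gave 1 gene with an adjusted p under 0.05, and leaving out single libraries gave 0 to 1 such genes and 333 to 2013 with an unadjusted p under 0.05.

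Of 1432 refitted values of 81 named genes, 1224 kept direction and side of the threshold, 191 lost the call and 3 gained one. The 14 that reversed belonged to 5 uncalled genes near 0. *C1ql3* was at 0.17 as deposited and 0.069 with the span trend removed, and ranged from −0.071 to 0.054 without single libraries. *A730046J19Rik* was at −0.067 with quantile normalization and ranged from −0.24 to 0.15. *Gfra1* was at −0.14 with the span trend removed and ranged from −0.024 to 0.081. *Ret* ranged from −0.010 to 0.21 and *Lhx3* from −0.037 to 0.22.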
